A study of Xenopus tropicalis with 9 samples.

Results

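The genes described here are tbxt and t2, which encode paralogs of the transcription factor Brachyury, and ihh, which encodes the secreted signal Indian hedgehog. They were taken as the rows of the count table that the authors' tables of selected genes name tbxt, t2 or ihh. These were 3 of 19921 genes, and all 3 passed the filter on low counts that kept 14125 genes. RNA was sequenced from tails of wild-type Xenopus tropicalis, a frog that loses its larval tail in metamorphosis. The 9 libraries comprised 3 of whole tail at stage 60, 3 of whole tail at stage 63, and 3 of stage 63 tail freed of its notochord. The design text of the series describes a comparison of tail before and during metamorphosis. The labels name no strain, treatment or age beyond the stage, and do not say whether a library held 1 tail or several, so p-values reflect no more than the variation among these libraries, which may be technical.

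Brachyury is the founding member of the T-box family of DNA-binding proteins and is required for the notochord and the posterior mesoderm of vertebrate embryos. Hedgehog ligands bind the receptor Patched, which releases Smoothened from inhibition and lets Gli transcription factors act on target genes such as ptch1 and gli1. Sonic hedgehog is the ligand best known from the embryonic notochord and floor plate, while Indian hedgehog is best known from growing cartilage in mice, where it regulates chondrocyte maturation. The gene of sonic hedgehog is not named in the authors' tables of selected genes, so its level could not be read here.

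Libraries held 26928846 to 34836531 counts. Levels are given as CPM, read counts brought to a common library size after scaling by TMM, a factor that corrects for composition, and fold changes as log2 with their standard error (SE) from edgeR's quasi-likelihood test. In whole tail between stages, 83.8% of tested genes passed at an adjusted p under 0.05, with 43% higher and 40.8% lower at stage 63. Of the same genes, 25.6% passed between tails with and without the notochord, with 11.1% higher and 14.5% lower in whole tail. The 1570 genes higher in whole tail became 991 when stage 63 whole tail replicate 2 was left out. The TMM scaling placed the median gene 0.82 (log2) lower in the stage comparison than library size alone, so stage changes are relative to it. The libraries of a group did not overlap with those of the other for 85.4% of genes in the stage comparison and for 39.3% in the notochord comparison. For notochord-removed stage 63 against whole stage 60 tail that share was 83.4%, and 43.3% of genes were called higher and 39.7% lower. The authors' tables hold genes selected for a ratio above 2, ihh for stage 63 over stage 60, t2 for whole over notochord-removed tail, and tbxt for both. A comparison by which a gene had been selected is therefore given here as a description, without its p.

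At stage 60 tbxt was at 2.61, 2.16 and 2.60 CPM in the 3 whole-tail libraries. At stage 63 it was at 4.19, 4.22 and 3.83 CPM in whole tail, and at 0.594, 0.309 and 0.292 CPM in notochord-removed tail. The groups did not overlap, with whole tail at stage 63 highest and notochord-removed tail lowest. The level was 1.66-fold higher at stage 63 than at stage 60 (log2 0.73 ± 0.16). With library size alone the log2 difference was 1.55, in the same direction. Without the notochord 9.66% of the stage 63 level remained, with a 95% interval from 6.93% to 13.2% that covers counting error only (exact binomial). It rested on 44 counts against 474 in the 3 libraries of each group, and 21 of the 44 lay in notochord-removed replicate 1.

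The paralog t2 had the highest level of the 3 genes per base of exon at stage 60 and fell toward stage 63. In the authors' deposited table its mean FPKM, a level per length, was 8.57 at stage 60, against 1.28 for tbxt and 0.0331 for ihh. It was at 24.2, 27.5 and 25.4 CPM at stage 60 and at 9.88, 9.53 and 8.53 CPM in whole tail at stage 63. In notochord-removed tail it was at 0.283, 0.309 and 0.219 CPM. The 3 groups did not overlap, and each had a narrow range beside the distance to the next. In whole tail t2 fell by 1.47 on the log2 scale (SE 0.085, edgeR adjusted p = 3.28e-12), which left it 2.77-fold lower and lower in 3 of 3 libraries. With library size alone it fell by 0.65, still past the threshold, and the adjusted p stayed between 5.26e-45 and 6.48e-07 in every alternative tried. The selection of t2 did not use the stage 60 libraries, although it shared the stage 63 whole tails. Without the notochord 2.89% of the stage 63 level remained (counting interval 1.94% to 4.14%), from 30 counts against 1082. Tail without the notochord at stage 63 stood below stage 60 whole tail by 2.63 on the log2 scale (-2.63 ± 0.24) for tbxt and by 6.56 (-6.56 ± 0.15) for t2, values that share libraries with the comparisons above. In bulk tissue fewer notochord cells and less transcript per cell cannot be told apart.

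**Figure D1:**
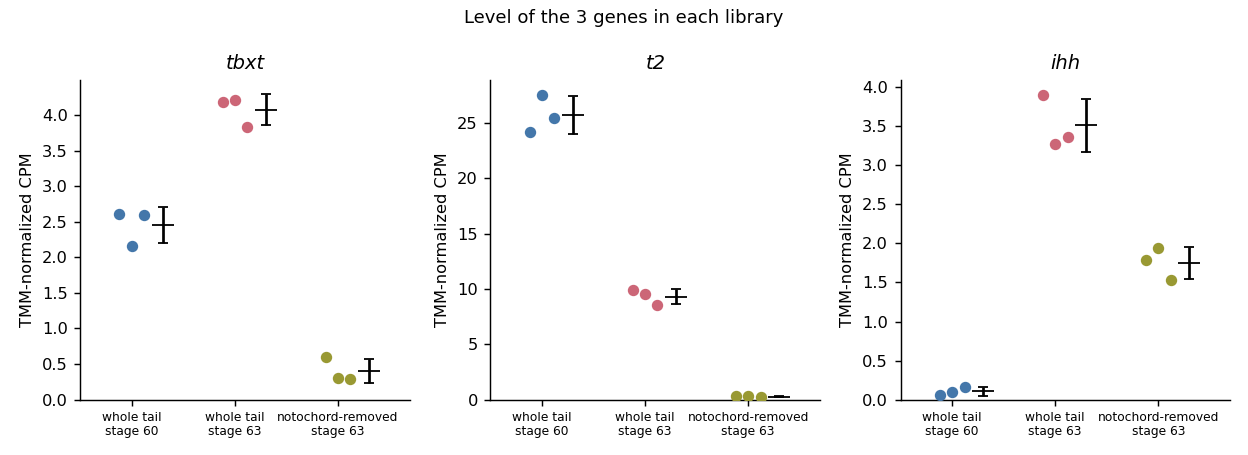
TMM-normalized CPM (vertical axis, from 0) of tbxt, t2 and ihh in each of the 9 libraries, with the mean and SD of 3 libraries beside each group. From stage 60 to stage 63 whole tail, tbxt went from a mean of 2.46 to 4.08 CPM, t2 from 25.7 to 9.31 CPM and ihh from 0.107 to 3.51 CPM.

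The balance between the paralogs differed among the groups. Within a library the ratio of counts per base of exon needs no scaling between libraries. At stage 60 t2 outnumbered tbxt 5.94-, 8.16- and 6.27-fold per base in the 3 libraries, and at stage 63 it did so 1.51-, 1.45- and 1.43-fold. The log2 ratio of tbxt to t2 was -2.75 ± 0.25 (SD, n = 3) at stage 60 and -0.55 ± 0.044 (SD, n = 3) in whole tail at stage 63, a 4.60-fold shift toward tbxt. The groups did not overlap. Since tbxt had been selected on both comparisons and t2 on the notochord comparison, the ratios are a description and no p is given. In the notochord-removed tail the order of the paralogs was inverted, with tbxt 3.28-, 1.56- and 2.08-fold above t2 per base. There the log2 ratio was 1.14 ± 0.54 (SD, n = 3), which lay above all whole-tail values. This last ratio rests on 9 to 21 counts of each gene per library.

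**Figure D2:**
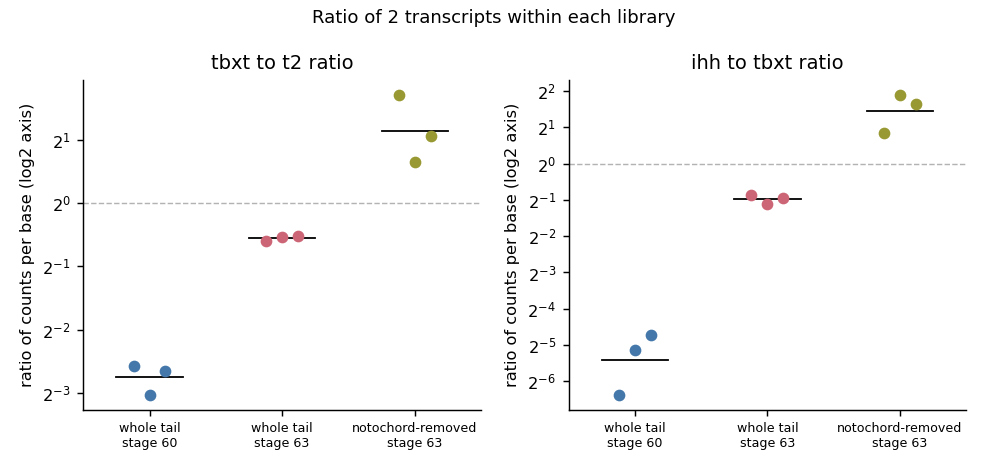
Ratio of counts per base of exon between 2 transcripts within each library, on a log2 axis, with a line at the mean of the log2 ratios of each group and a dashed line at equal levels. The tbxt to t2 ratio rose from at most 0.168 at stage 60 to at least 0.661 in stage 63 whole tail, and the ihh to tbxt ratio from at most 0.0379 to at least 0.460.

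The paralogs lie side by side. In the count table's own coordinates, for which no build is stated in the sources at hand, tbxt (ENSXETG00000005370) spans bases 292769 to 298749 and t2 (ENSXETG00000026572) bases 328396 to 337291 of scaffold GL173068.1, both on the plus strand and 29.6 kb apart. In RefSeq (assembly UCB_Xtro_10.0, used for names and gene order only) t2 is a synonym of tbxt.2, which lies between tbxt and the phosphodiesterase gene pde10a, the same order as on the scaffold. Paralogs can share reads, so the split of counts between them is uncertain to that extent.

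Other genes of this scaffold are given beside the paralogs, which had been selected on the notochord comparison. The scaffold held 9 genes, of which 5 were tested besides the paralogs, and their log2 differences between whole and notochord-removed tail ran from 0.069 to 1.17, against 3.36 ± 0.20 for tbxt and 5.10 ± 0.16 for t2. The next gene past t2, pde10a, differed by 0.069 ± 0.15 and did not pass (edgeR adjusted p = 0.781). The largest difference among them was in the unnamed ENSXETG00000005367 (1.17 ± 0.16, edgeR adjusted p = 2.23e-05), and the RNA-binding protein gene qki was higher by 0.22 ± 0.06 (edgeR adjusted p = 0.0126), a call lost without whole tail stage 63 replicate 2 (adjusted p = 0.0563, the highest over its alternatives).

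**Figure D3:**
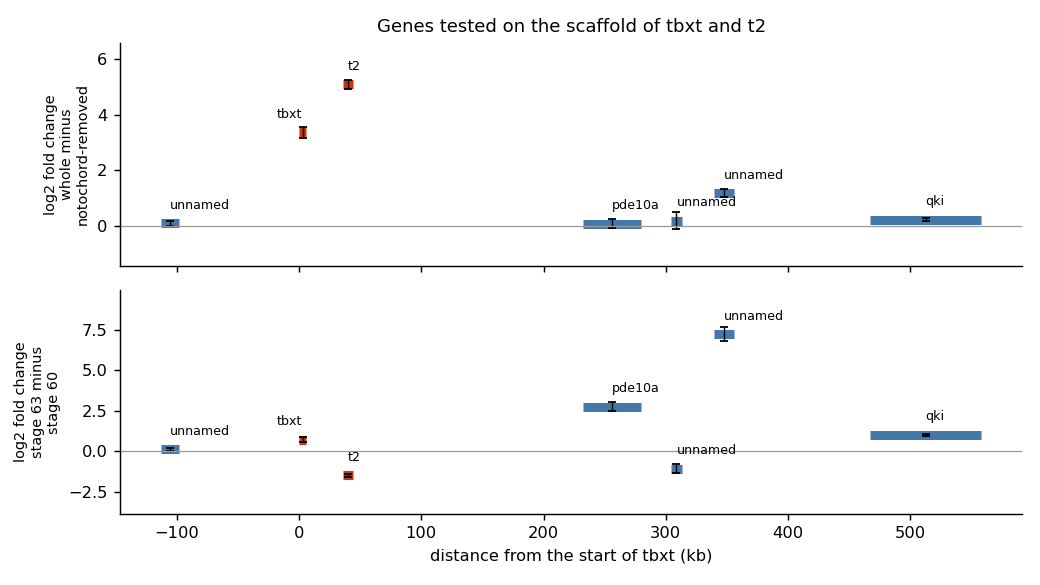
Log2 fold change (bars spanning each gene, whiskers ± SE) of the 7 tested genes on the scaffold of tbxt and t2 against distance from the start of tbxt in kb, for the notochord comparison above and the stage comparison below. In the notochord comparison tbxt and t2 stand at 3.36 and 5.10, and the other genes lie between 0.069 and 1.17.

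The hedgehog ligand gene ihh was close to absent at stage 60 and was present in all stage 63 tails. It had 1, 2 and 3 counts in the stage 60 libraries, 153, 114 and 143 in whole tail at stage 63, and 63, 69 and 63 in notochord-removed tail. These are 0.0533, 0.103 and 0.166 CPM, then 3.90, 3.27 and 3.36 CPM, and 1.78, 1.94 and 1.53 CPM. The notochord-removed tails thus lay between the other groups, overlapping neither. By summed counts ihh was 33.0-fold higher at stage 63 in whole tail (counting interval 15.03 to 90.4), with 6 counts in all at stage 60. In tails without the notochord it was 16.3-fold above stage 60 whole tail (counting interval 7.37 to 45.0).

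In the notochord comparison, by which ihh had not been selected, a large part of its level remained without the notochord. Whole tail exceeded notochord-removed tail by 1.01 ± 0.14 on the log2 scale (edgeR adjusted p = 3.85e-05, higher in 3 of 3 libraries), and 49.5% of the level remained (counting interval 41.5% to 58.8%). This comparison shares the stage 63 whole tails with the one that selected ihh. Set beside it, 9.66% of tbxt and 2.89% of t2 remained, but both had been selected for a high ratio of whole to notochord-removed tail, so these shares are given as a description. The log2 ratio of ihh to tbxt was -0.97 ± 0.14 (SD, n = 3) in whole tail and 1.46 ± 0.56 (SD, n = 3) in notochord-removed tail, with no overlap, a description since tbxt had been selected on this comparison. Per base, ihh was at 0.554, 0.460 and 0.521 of the tbxt level in whole tail and at 1.78, 3.72 and 3.12 of it without the notochord. The gene (ENSXETG00000013874) spans bases 1981107 to 2018230 on the minus strand of scaffold GL172713.1. Of the 49 other genes tested on that scaffold, 5 were higher and 2 lower with the notochord than without it. Over all tested genes the shares were 11.1% higher and 14.5% lower.

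Lists of early response genes and of markers of other tissues were also compared between tails with and without the notochord. Of all tested genes, 25.6% passed there, with 11.1% higher and 14.5% lower in whole tail. Of 14 early response genes, 13 were lower in whole tail, with summed levels of 788 to 827 CPM against 1959 to 1996 CPM in notochord-removed tail. Of 3 skeletal muscle markers, 2 were higher in whole tail, with sums of 78.4 to 82.4 against 39.0 to 54.5 CPM. These 2 carry names through their selection on this comparison alone, so the count and the sums are a description. None of 10 endothelium markers was higher and 5 were lower, with sums of 248 to 294 against 294 to 381 CPM. Of 10 leukocyte markers, 4 were higher and 1 lower, with sums of 1370 to 1408 against 1306 to 1354 CPM. Of 11 epidermis markers, 2 were higher and 2 lower, with sums of 4635 to 4765 against 4599 to 4941 CPM. Of 6 floor plate, spinal cord and neuron markers, 1 was higher, foxa2, which had been selected on this comparison. The 6 summed to 10.9 to 11.9 against 8.63 to 11.9 CPM. The part of these lists in the results for tbxt, t2 and ihh was not tested.

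Genes that receive and transduce the hedgehog signal were higher at stage 63 than at stage 60. Besides ihh, 28 genes of the hedgehog lists were measured, that is, tested and carrying a symbol from the authors' tables. Of these, 26 rose in whole tail, none fell and 2, GPC3 and pax9, did not pass. Over all tested genes, 43% were called higher and 40.8% lower. For the 28 genes all directions stand under the selection given below. The median log2 fold change of the 28 was 1.48, against 0.051 for all tested genes and 1.02 for the 5612 tested genes with a symbol. All 28 carry a name because the authors had selected them for a ratio above 2 between these stages, so the direction is not independent evidence. Among ligands and their release, the ligand gene dhh rose by 1.83 ± 0.35 but reached only 0.826 ± 0.12 CPM (SD, n = 3). The gene disp1, whose product releases lipid-bearing ligand, rose by 0.72 ± 0.11, and scube1, of a secreted family that assists release, by 1.86 ± 0.17.

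On the receiving side the receptor gene ptch1 rose by 2.79 ± 0.24, from 0.704 ± 0.38 to 4.91 ± 0.80 CPM (SD, n = 3). The signal transducer gene smo rose by 2.83 ± 0.16. The co-receptor genes cdon and GAS1 rose by 2.58 ± 0.091 and 1.71 ± 0.074. The decoy receptor gene hhip, which binds and sequesters ligand, rose by 1.09 ± 0.24. The transcription factor genes gli1, gli2 and gli3 rose by 1.78 ± 0.20, 1.66 ± 0.13 and 2.45 ± 0.14, and the negative regulators sufu and gpr161 by 0.90 ± 0.10 and 1.23 ± 0.083. Among further known targets, the forkhead genes foxc2 and foxf1 rose by 2.45 ± 0.15 and 1.76 ± 0.27. A further forkhead gene, foxf2, had no counts at stage 60 and 34 at stage 63, at least 5.47-fold higher against a floor of 3 counts over the group, which left the list's median at 1.48.

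Few of the same genes passed between tails with and without the notochord, a comparison by which they had not been selected. It shares the stage 63 whole tails with the comparison that selected them, so it is not independent of that selection. Of the 28, 2 were higher in whole tail and 1 lower, which is 3 of 28 beside 25.6% of all tested genes. The median log2 difference was 0.054, against 0.0065 for all tested genes. The genes higher in whole tail were scube1 (0.71 ± 0.12, edgeR adjusted p = 3.44e-04) and spop (0.21 ± 0.061, edgeR adjusted p = 0.0147), an adaptor for the degradation of Gli proteins. The call for spop was lost without whole tail stage 63 replicate 1 (adjusted p = 0.0757, the highest over its alternatives), which left 1 gene higher. The decoy gene hhip was lower in whole tail (-0.61 ± 0.16, edgeR adjusted p = 0.00859). The readout genes ptch1 (0.097 ± 0.15) and gli1 (0.26 ± 0.14) did not pass, at edgeR adjusted p = 0.672 and 0.189. When replicate 3 of the notochord-removed tail was left out, gli1 passed at 0.46 (edgeR adjusted p = 0.0113, the lowest over its alternatives), and 5 genes were higher. Without replicate 1 or replicate 2 of that group, 2 genes were lower. A missed threshold does not show equal levels.

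**Figure D4:**
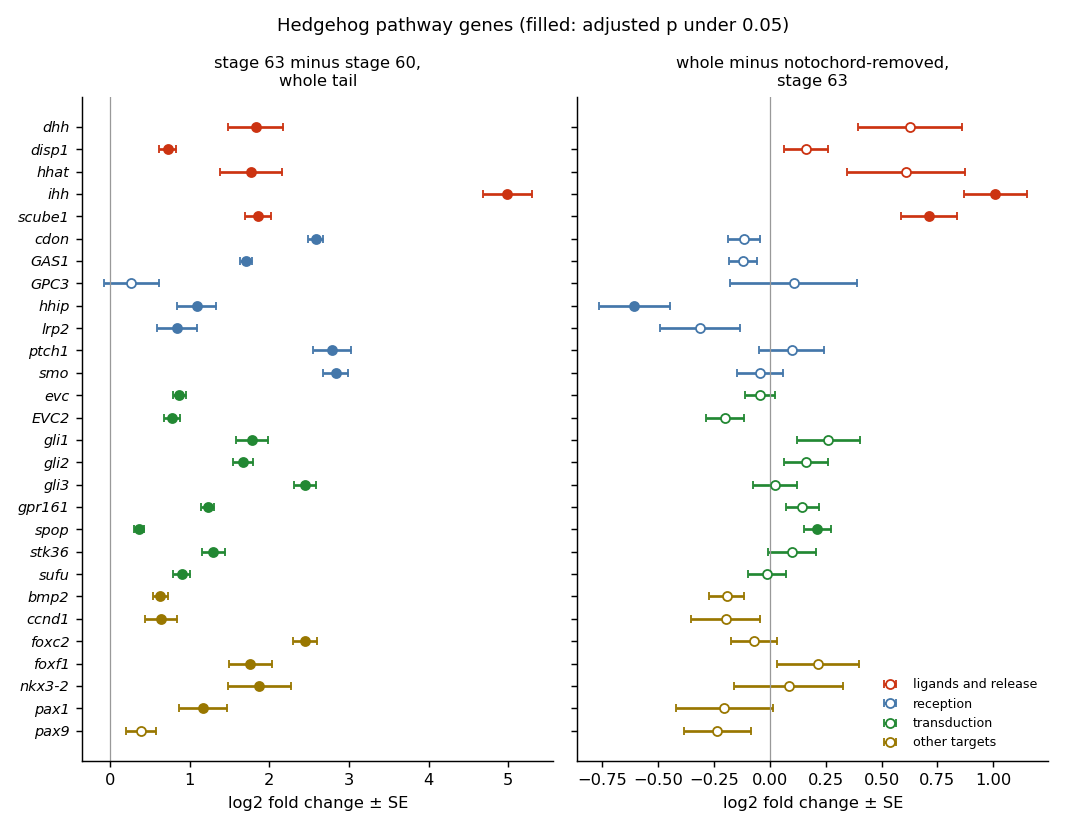
Log2 fold change ± SE of ihh and 27 other hedgehog genes between stages in whole tail (left) and at stage 63 with and without the notochord (right), colored by role, with filled points at an adjusted p under 0.05. In the stage comparison 26 of these 28 points are filled, and in the notochord comparison ihh at 1.01, scube1 at 0.71, spop at 0.21 and hhip at -0.61 are; foxf2, with no counts at stage 60, is not drawn.

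The T-box list had 7 measured members, of which 5 rose and 1 fell between stages, the latter t2, beside 83.8% of all tested genes called. All but t2 had been selected for a ratio above 2 between these stages, so their direction is not independent evidence. In the notochord comparison 2 were higher, tbxt and t2, which had been selected on it, and 5 did not pass, beside 25.6% of all tested genes called. The T-box genes tbx2, tbx1 and tbx3 rose between stages by 2.10 ± 0.085, 0.63 ± 0.12 and 0.52 ± 0.13, and mga by 1.19 ± 0.087.

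Of 30 listed symbols of notochord regulators and organizer signals, 10 were measured, and the others had no tested row with their symbol. Among the 10, foxa2 was, like t2, named through the notochord table alone. This forkhead gene, needed for node and notochord formation in mice, was at 0.799, 1.49 and 0.773 CPM at stage 60 and at 0.944, 1.15 and 0.775 CPM in whole tail at stage 63. In notochord-removed tail it was at 0.0566, 0.309 and 0.438 CPM. Whole-tail libraries of the stages overlapped (log2 difference -0.12 ± 0.34, edgeR adjusted p = 0.746), and its sign turned with library size alone, at 0.70. Whole tail stood 3.39-fold above notochord-removed tail, the comparison that had put foxa2 in the authors' table. Its relative foxa1 rose between stages by 0.72 ± 0.11 and was higher in whole tail by 0.34 ± 0.097 (edgeR adjusted p = 0.0142). The call for foxa1 was lost without whole tail stage 63 replicate 1 or notochord-removed replicate 1 (adjusted p = 0.0677 and 0.0503, the former the highest over its alternatives), which left 1 gene of the list higher. In all, 7 of these 10 genes rose between stages and none fell, beside 43% and 40.8% of all tested genes. The authors had selected 9 of the 10 for a ratio above 2 between these stages, so the direction is not independent evidence. With the notochord 2 were higher and 1 lower than without it, which is 3 of 10 and near the 25.6% called among all tested genes. The lower gene was fst, an activin antagonist (-0.35 ± 0.09, edgeR adjusted p = 0.00771).

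Several genes of notochord and cartilage matrix and of intermediate filaments fell far more between stages than t2. Of 12 measured, 7 fell and 5 rose in whole tail, beside 40.8% and 43% of all tested genes. The 12 summed to 3906 to 3940 CPM at stage 60 and 438 to 473 CPM at stage 63, with 287 to 295 CPM without the notochord. Most of the stage 60 sum lay in the intermediate filament genes krt8, des.2 and vim.2, with means of 1276, 1200 and 840 CPM. In stage 63 whole tail these were at 108, 4.38 and 9.86 CPM. Among the 5 that rose, ctgf went from 125 to 171 CPM and epyc from 97.7 to 134 CPM. The sum is therefore no measure of matrix genes alone. The 7 that fell carry names through the notochord table alone. The 5 that rose had been selected for a ratio above 2 between these stages, so their direction is not independent evidence. The cartilage glycoprotein gene chad fell by 6.46 on the log2 scale (SE 0.12), vim.2 by 6.41 (SE 0.11), COL9A1 by 3.16 (SE 0.096) and cnmd by 3.23 (SE 0.079). Set beside these, t2 fell by 1.47 and tbxt was higher by 0.73. The share left at stage 63 without the notochord was 2.02% for chad (2 against 103 counts, counting interval 0.242% to 7.49%), 5.50% for vim.2, 11.2% for des.2, 13.6% for COL9A1, 30.7% for krt18l, 43.7% for cnmd and 48.7% for the keratin gene krt8, the 7 genes selected on that comparison. For the other 5 of the list it was 63.9% for ctgf, 79.6% for epyc, 105% for matn4, 108% for hapln1 and 131% for emilin3. Of the 12, 9 were higher and 1 lower with the notochord than without it, beside 11.1% and 14.5% of all tested genes. The selection of 7 of the 12 on this comparison set that count. The lower gene, emilin3, did not pass without whole tail stage 63 replicate 1 or 2 (edgeR adjusted p = 0.0565 and 0.078, the latter the highest over its alternatives), which left 0 lower.

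**Figure D5:**
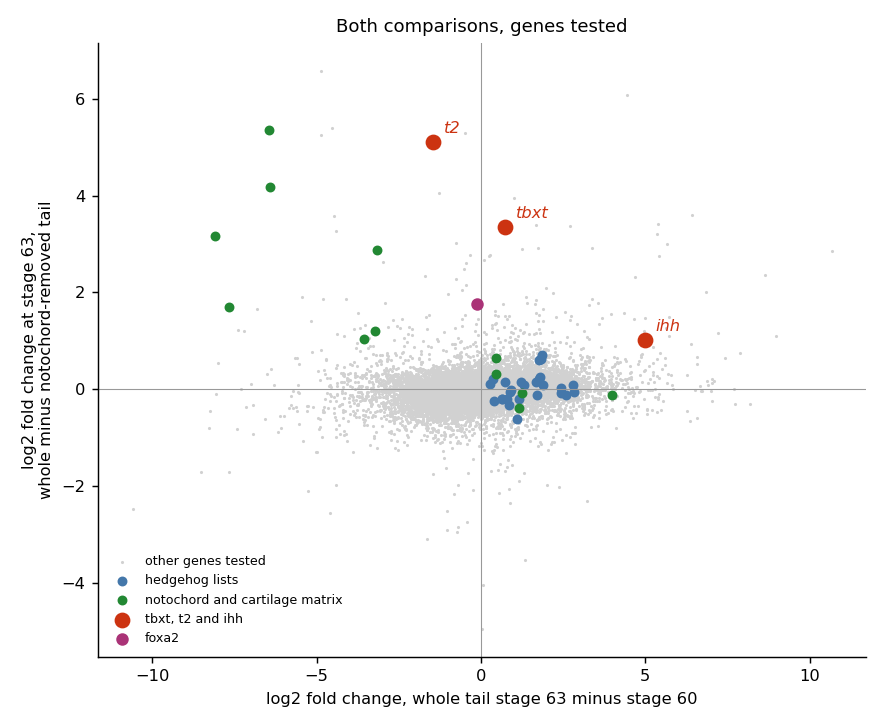
Log2 fold change between stages in whole tail (horizontal) against log2 difference at stage 63 with and without the notochord (vertical) for tested genes, with tbxt, t2 and ihh in red, foxa2 in purple, hedgehog genes in blue and notochord and cartilage matrix genes in green; both axes share the stage 63 whole tails, and foxf2 is left out. The 3 genes lie at 0.73 and 3.36 (tbxt), -1.47 and 5.10 (t2), and 4.99 and 1.01 (ihh), the hedgehog genes along the horizontal axis.

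The genes with profiles most like each of the 3 were found among 5611 tested genes with a symbol, by distance between mean-centred log2 CPM over the 9 libraries. Nearest to tbxt was trh, which encodes thyrotropin-releasing hormone, at 0.992 ± 0.15, 2.01 ± 0.24 and 0.125 ± 0.014 CPM (SD, n = 3) in stage 60 whole, stage 63 whole and notochord-removed tail. It was followed by xt6l, nov, pgq and adarb2, of which nov and pgq were lower at stage 63 (-0.44 and -0.77, edgeR adjusted p = 0.00168 and 2.41e-07), opposite to tbxt. With library size alone nov was higher (0.38, edgeR adjusted p = 0.00532) and pgq did not pass (0.054, edgeR adjusted p = 0.565). Nearest to t2 was the corticotropin-releasing hormone receptor gene crhr1.1, at 29.0 ± 0.30, 20.7 ± 1.40 and 0.532 ± 0.12 CPM (SD, n = 3), then clec3a, COL9A1, tmem163 and pskh2. These 10 genes were all higher with the notochord than without it, by 2.27 (pgq) to 5.28 (crhr1.1) on the log2 scale. That direction is a description, since the genes were chosen for profiles like tbxt or t2 over the same libraries.

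Nearest to ihh were ido1, mmp8, muc5b, arg1 and il4i1. Of these, mmp8 encodes a collagenase, and ido1, arg1 and il4i1 encode enzymes that break down tryptophan, arginine and phenylalanine. At stage 63 whole tail ido1, mmp8, arg1 and il4i1 were higher than at stage 60 by 4.06 (mmp8) to 4.97 (arg1) on the log2 scale, and muc5b went from 0, 0.103 and 0.0552 CPM to 3.34, 2.75 and 2.96 CPM. All 5 were higher with the notochord than without it, by 0.36 (il4i1) to 1.49 (muc5b), but il4i1 did not pass without stage 63 whole tail replicate 1 or 2 (edgeR adjusted p = 0.0525 and 0.062, the latter the highest over its alternatives). Choosing genes for profiles like ihh over the same libraries favored these directions in both comparisons, so they are a description. This choice was less stable than those for tbxt and t2. Ranked by Pearson correlation in place of distance, 0 of the 5 genes named for ihh stayed among the nearest 5, against 1 for tbxt and 3 for t2. Without replicate 1 or replicate 3 of stage 60, 2 of the 5 named for ihh stayed.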

How the data were processed

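Tail RNA of 3 groups of 3 libraries was analysed. The submitters' processing notes name STAR 2.5.4a and featureCounts 1.5.2; genome build and strand setting are not given in the sources used here, so reads of overlapping or antisense genes may be mixed. Raw counts for each Ensembl gene are what the authors' main table holds, per the file headers. The authors' deposited tables give a mean FPKM for each group, with ratios between groups. For tbxt, t2 and ihh, FPKM computed from the counts equalled the authors' means, and these tables served for gene names and the mean FPKM printed. Every count column belonged to a sample. The table the authors describe as genes common to both lists was not used.

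The counts entered edgeR 4.0.16 in R 4.3.3, with filterByExpr, TMM factors (0.672 to 0.690 at stage 60, 1.18 to 1.25 at stage 63), estimateDisp, a robust glmQLFit and glmQLFTest, 1 fit over the 9 libraries with a mean for each group. P-values were adjusted by Benjamini-Hochberg over all 14125 genes tested, and genes under 0.05 were called. As an approximation, the SE was taken as log2 fold change over the root of the F statistic. Shares and ratios of summed counts used TMM-scaled library sizes and exact binomial intervals. Ratios between genes are given without the exact permutation test planned for them, which used comparisons by which tbxt had been selected. No pair of libraries within a group was alike within sampling noise by chi-square over genes with 10 or more counts in the pair. The fit was tested on simulated counts.

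The members and the 14 gene lists were chosen with earlier results of these data known. From the hedgehog lists 1 gene is not reported here. Symbols were matched ignoring case. A list gene is called measured where it was tested and carried a symbol from the authors' tables. Other genes of a list may be in the count table without a symbol. The rule for named genes took tbxt, t2 and ihh, up to 6 members per list and comparison by p and reaching 1 CPM in a group, and the 5 nearest profiles per gene (prior count 2). Lists of other tissues and of early response genes are given by counts and summed levels. Outside this rule, dhh, emilin3, epyc, foxf2, GPC3, hapln1, matn4, sufu and the scaffold neighbours were named after their values were seen. Alternatives were other scalings, filters and tests (DESeq2 1.42.0, limma-voom with limma 3.58.1), a replicate block, the comparison's own 6 libraries, and leaving out each library.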

Additional observations from a re-analysis of the deposited data

How the results depend on the processing

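The directions and calls of tbxt, t2 and ihh in the 3 comparisons held under all 18 alternatives. The directions of both ratios held under adding 0.5 to counts and leaving out each library. Where a gene had been selected on a comparison, and for the ratios, this is a description and no independent support. Under scaling by library size alone, stage 63 whole tail had 9501 genes higher and 2821 lower, 9794 and 2566 between notochord-removed and stage 60 tail, and 2 hedgehog genes were lower with the notochord than without it. It also turned the sign of the stage change of foxa2 (0.70), nov (0.38), pgq (0.054), crhr1.1 (0.33) and tmem163 (0.054). Of these, nov and crhr1.1 passed there, while foxa2, pgq and tmem163 did not (edgeR adjusted p = 0.0661, 0.565 and 0.76). Foxa2 also turned without stage 60 replicate 2 (0.27) and stage 63 whole tail replicate 3 (0.021), within -0.28 to 0.27 over single libraries left out. So did adarb2 without stage 60 replicate 2 (-0.11, range -0.11 to 0.63) and the notochord difference of ptch1 without stage 63 whole tail replicate 3 (-0.039, range -0.039 to 0.20).

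With single libraries left out, 991 to 1939 genes were higher in tails with the notochord. There, 1 to 5 hedgehog genes were higher and 1 to 2 lower, 1 to 2 notochord regulators higher, 0 to 1 matrix genes lower and 0 to 1 genes of the Ihh skeletal axis higher. Of the 5 nearest profiles, the Pearson ranking kept 1 for tbxt, 3 for t2 and 0 for ihh. For ihh, a prior count of 0.5 kept 3, library size alone kept 3, and leaving out libraries kept 2 to 5. The causes were not tested.

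Same-numbered libraries deviated together in 2 of 3 pairs of the notochord comparison (r = 0.21, -0.032 and 0.25) and in none of the stage comparison (0.0015 to 0.035). The labels do not say that the numbers are pairs, and the main fit did not take them as such. Any variation shared by same-numbered libraries in the notochord comparison is therefore not modelled there. With a replicate block 1951 genes were higher and 2253 lower with the notochord, against 1570 and 2043. Low depth limits ihh and COL10A1 at stage 60 and tbxt and t2 in notochord-removed tail. Among the nearest profiles it also limits adarb2 in all groups and pskh2 in notochord-removed tail.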

Other observations

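In mouse growth cartilage Indian hedgehog acts together with regulators of chondrocyte and bone differentiation, and 7 genes of that axis had a named row. All 7 rose between stages in whole tail, beside 43% of all tested genes. Their direction was set by the authors' selection for a ratio above 2. The bone transcription factor gene runx2 rose by 2.55 ± 0.091, from 4.85 ± 0.062 to 28.4 ± 1.78 CPM (SD, n = 3), its relative runx3 by 1.66 ± 0.15, the receptor gene fgfr3 by 2.22 ± 0.15 and the phosphatase gene alpl by 1.46 ± 0.094. The gene of collagen X, COL10A1, a marker of hypertrophic cartilage, had 3 counts at stage 60 and 863 in whole tail at stage 63, 139 times the level (counting interval 47.4 to 675).

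Of the 7, 1 was higher in whole than in notochord-freed tail, beside 11.1% of all tested genes. This was runx2 (0.26 ± 0.069, edgeR adjusted p = 0.00871), and the call was lost without whole tail stage 63 replicate 3 (adjusted p = 0.0564, the highest over its alternatives). COL10A1 averaged 7.40 ± 0.38 CPM with the notochord and 7.64 ± 1.20 CPM without it (SD, n = 3), and 102% of its level remained without the notochord (counting interval 92.9% to 113%).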
